A study of Homo sapiens with 8 samples.

Results

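The Krüppel-like factors (KLF) and the specificity proteins (SP) are transcription factors that share a run of C2H2 zinc fingers and bind GC-rich or CACCC DNA in promoters and enhancers. The 10 genes described here were KLF2, KLF4, KLF5, KLF6, KLF9, KLF10, KLF11, KLF13, SP1 and SP3, found by their symbols among the 16796 genes of the count files. All 10 were present and tested. They were measured by RNA sequencing in LX-2 cells, an established human line of hepatic stellate cells (HSCs), the liver cells that turn into collagen-producing myofibroblasts in fibrosis. Control cells received the vehicle DMSO (1 control library is labelled with the spelling DSMO), and OGTi cells received the inhibitor OSMI-1, dosed at 50 µM over 24 h. This compound blocks O-GlcNAc transferase (OGT), the enzyme that places the sugar O-GlcNAc on nuclear and cytoplasmic proteins. Both groups grew in medium with 5% serum, with 4 biological replicates each, and a control and an OGTi library of the same replicate number formed a pair. As a single cell line in culture, LX-2 stands for 1 human genotype and for stellate cells that are already activated.

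Family members are read by what sets them going. KLF2 and KLF4 are switched on by the kinase ERK5 through MEF2 factors and are known for keeping endothelium quiet. KLF6 was described early in activated stellate cells, KLF5 in proliferating smooth muscle, and KLF10 and KLF11 as early genes of TGF-β, the main fibrogenic cytokine. KLF9 is an immediate target of the glucocorticoid receptor, KLF13 is its close relative, and SP1 and SP3 are present in nearly all cells, where they bind the same GC box. SP1 is also a long-known carrier of O-GlcNAc on its protein, which RNA sequencing does not measure.

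Among the 10 members, 2 rose under OGTi (KLF2 and KLF4), 7 fell (KLF6, KLF9, KLF10, KLF11, KLF13, SP1 and SP3) and KLF5 was not called. Calls required an adjusted p-value (q, Benjamini-Hochberg over all genes in DESeq2) at or under 0.05. The background was high, since 46.6% of the 14028 genes with a q were called, 22.7% as higher and 24.0% as lower (3181 and 3360 genes, against 4043 and 2563 when libraries were scaled by their totals). The members' median log2 fold change was -0.27, against 0.00 over all genes with a q. KLF9 had the largest change of the 10 (log2 fold change -1.95 ± 0.18, SE), and 97.9% of all genes fitted had a higher log2 fold change. KLF4 had the highest (0.86 ± 0.12), above that of 90.9% of genes. Between these ends, KLF11 fell by 1.17 ± 0.12 and KLF6 by 0.77 ± 0.08 on the log2 scale. The smallest changes called were those of SP3 and KLF13, and their call depended on single replicates, as given with their values.

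**Figure D1:**
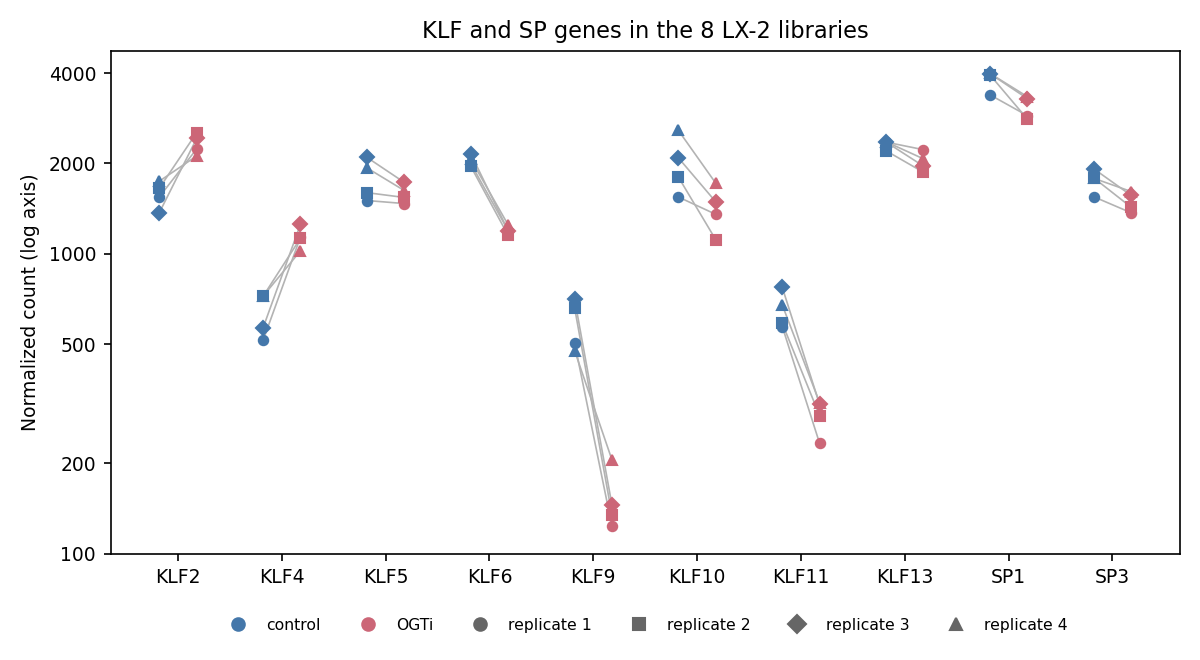
Normalized count (counts divided by the library's size factor, log axis) of each member in the 4 control and 4 OGTi libraries, with the same symbol and a grey line for libraries of the same replicate number. KLF2 and KLF4 lie higher in all OGTi libraries, KLF6, KLF9, KLF11 and SP1 lie lower in all of them, and the groups overlap for KLF5, KLF10, KLF13 and SP3. The share of all genes whose groups did not overlap was not counted, so no trait of the members is read from these gaps.

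Libraries held 24166756 to 28201215 counts, and 12829 to 13180 genes per library reached 10 counts. No library was a copy of another, since the chi-square per degree of freedom between libraries of a group ran from 8.66 to 36.2. Every count of the 10 members was a whole number in all 8 libraries, so none of their reads had been divided between genes by the counting, which also used strand. Normalized counts are given as mean ± SD (n = 4 libraries a group) and log2 fold changes with their SE from DESeq2. LX-2 identity was checked with marker lists. All 12 stellate cell and myofibroblast markers were in the files, summing to 227158 to 268734 normalized counts in control and 164285 to 186938 in OGTi libraries. Most of that was VIM (79105 to 109557 in all libraries) and COL1A1 (80369 to 92289 in control and 38220 to 48489 in OGTi libraries). The retinoid enzyme LRAT and desmin (DES) stood at 0 to 5.75 and 0 to 4.16, and RGS5 at 32.1 to 82.8. Among markers of other cells, those in the files were 2 of 6 for hepatocytes, 3 of 4 for cholangiocytes and 4 of 6 for macrophages. The hepatocyte markers summed to 19.5 to 74.0 in all libraries, nearly all of it SERPINA1, with APOA1 at 0 to 1.0. The cholangiocyte markers summed to 681 to 1273. Most of that was SOX9 (580 to 1196), with KRT7 at 32.1 to 141 and KRT19 at 0 to 3.01. The macrophage markers summed to 2482 to 4089 in control and 5610 to 9391 in OGTi libraries. Nearly all of that was CD68, with the leukocyte marker PTPRC at 0 to 11.5. The part of other cell types in the results was not tested. In these bulk samples fewer cells that make an RNA and less RNA per cell cannot be told apart.

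Promoter sequence is shown for the 2 members that rose, for the member that fell most and for SP1, because the family binds GC boxes and the members differ in how many their own windows hold. RefSeq windows (GRCh38.p14) were read for 9 of the 10 members, with KLF10 left out. The 250 bases before the start are printed 5′ to 3′ along the gene's strand. Capitals mark the GC box (GGGCGG on either strand), the CCAAT box (CCAAT on either strand) and, in KLF2, a MEF2 site, and in SP1 a CCAAT box overlaps a GC box.
KLF2 (chr19:16324576-16324825, plus strand): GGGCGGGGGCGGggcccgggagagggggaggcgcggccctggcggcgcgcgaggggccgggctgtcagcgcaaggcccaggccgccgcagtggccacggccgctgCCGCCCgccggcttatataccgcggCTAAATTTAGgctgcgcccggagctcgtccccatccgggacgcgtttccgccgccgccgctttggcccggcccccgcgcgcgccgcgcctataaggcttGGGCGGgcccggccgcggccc
KLF4 (chr9:107489770-107490019, minus strand): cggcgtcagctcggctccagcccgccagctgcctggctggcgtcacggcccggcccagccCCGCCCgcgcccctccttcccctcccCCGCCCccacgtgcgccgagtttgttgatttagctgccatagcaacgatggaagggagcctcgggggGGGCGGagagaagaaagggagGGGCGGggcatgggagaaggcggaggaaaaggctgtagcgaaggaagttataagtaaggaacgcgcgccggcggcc
KLF9 (chr9:70414658-70414907, minus strand): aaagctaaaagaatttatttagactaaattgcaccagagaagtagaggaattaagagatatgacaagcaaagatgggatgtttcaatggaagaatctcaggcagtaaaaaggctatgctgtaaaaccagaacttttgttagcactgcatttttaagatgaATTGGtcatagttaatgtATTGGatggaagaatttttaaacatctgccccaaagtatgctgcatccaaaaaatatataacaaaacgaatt
SP1 (chr12:53379926-53380175, plus strand): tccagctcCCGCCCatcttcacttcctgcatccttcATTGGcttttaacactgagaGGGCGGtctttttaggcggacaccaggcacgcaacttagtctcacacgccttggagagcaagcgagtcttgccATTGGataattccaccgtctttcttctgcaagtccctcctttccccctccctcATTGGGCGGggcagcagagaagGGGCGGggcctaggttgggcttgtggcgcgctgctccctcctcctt
No annotated exon (GENCODE release 44) overlaps these windows, and the window of KLF4 lies inside the span of longer KLF4 transcripts. KLF2 held 4 GC boxes, at 250, 244, 145 and 21 bases before the start, and a MEF2 site at 120 bases. KLF4 held 4 GC boxes as well, at 190, 164, 97 and 76 bases, and 2 copies on either strand of the core TGACG bound by CREB factors, which are not in capitals. KLF9 had no GC box in its window and 2 CCAAT boxes, at 90 and 72 bases. SP1 had 4 GC boxes, the nearest at 46 bases, and 3 CCAAT boxes. The windows not printed held 2 GC boxes each in KLF5, KLF6, KLF11 and SP3, and 3 in KLF13. The KLF11 window belongs to a start 279 bases from that of the canonical GENCODE transcript. It lies inside the gene and overlaps an annotated exon, so its letters are not only those of a promoter. An annotated exon also overlaps the windows of KLF6 and SP3. All of these windows enter the GC content given for the 9 members. At least 1 GC box occurs in 42.6% of the 34788 promoter windows of this length and at least 4 in 7.61%, at least 1 CCAAT box in 32.0%, at least 3 in 2.92%, a MEF2 site in 2.82% and the TGACG core in 21.2%. GC content was 80.0% for KLF2, 69.2% for KLF4, 58.0% for SP1 and 32.4% for KLF9, against a median of 58.0% over all windows and 70.8% over the 9 members. KLF9 was the lowest of the 9. These matches describe the letters of the windows only.

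KLF2 and KLF4, related factors of the same ERK5 route, were the members that rose. KLF2 (chr19:16324826-16328685, 3 exons) stood at 1547, 1653, 1369.8 and 1745 normalized counts in control replicates 1 to 4 and at 2236, 2533, 2424 and 2119 in OGTi replicates 1 to 4. Every OGTi library was above every control library, so the groups did not overlap. How often groups were apart in this way over all genes was not counted, here and for the genes below. The mean went from 1579 ± 161 to 2328 ± 186, equal to 0.56 ± 0.10 on the log2 scale (DESeq2 q = 2.69e-08), with pair ratios (log2 of OGTi over control of the same replicate number) between 0.28 in replicate 4 and 0.82 in replicate 3. For KLF4 (chr9:107484852-107490482, 5 exons), a factor also known for reprogramming cells to pluripotency, the control libraries read 514, 721, 567 and 723 and the OGTi libraries 1138, 1127, 1254 and 1023. Again the groups were apart, and the lowest OGTi library lay well above the highest control library. Its mean rose from 631 ± 107 to 1135 ± 94.4, equal to 0.86 ± 0.12 on the log2 scale (DESeq2 q = 5.29e-11). Replicates 1 and 3 had the larger pair ratios of KLF4 (1.15 in both), and replicates 2 and 4 the smaller (0.64 and 0.50). Endothelial cells are rich in both factors, and 5 of 6 endothelial markers in the files summed to 75.0 to 98.6 normalized counts in control and 19.0 to 45.7 in OGTi libraries. CDH5 stood at 23.4 to 45.1 in control and 1.0 to 5.77 in OGTi libraries, without overlap. The groups overlapped for PECAM1 (2.92 to 9.36 and 1.0 to 7.31), VWF (16.6 to 41.3 and 12.0 to 22.8), TEK (7.52 to 25.3 and 0.961 to 11.9) and KDR (0 to 2.08 and 0 to 5.02). The part of other cell types in the values of KLF2 and KLF4 was not tested.

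KLF5 and KLF6 took different courses. KLF5 (chr13:73054976-73077541, 4 exons) stood at 1505, 1599, 2096 and 1934 in control and at 1470.4, 1541, 1729.5 and 1625 in OGTi libraries. The groups overlapped, with control replicates 1 and 2 inside the OGTi range. All 4 pairs leaned lower, yet the log2 fold change of -0.15 ± 0.09 did not pass (DESeq2 q = 0.131, 95% interval -0.32 to 0.01). KLF6 (chr10:3775996-3785281, 4 exons) fell with little spread. It stood at 1999, 1958, 2157 and 2068 in control and 1194, 1151, 1194 and 1248 in OGTi libraries. No library crossed over, and the spread within a group was a few percent of the mean (4.26% in control and 3.32% in OGTi). Its mean fell from 2045 ± 87.1 to 1197 ± 39.7, which is 58.5% of control in the fit (log2 fold change -0.77 ± 0.08, DESeq2 q = 4.73e-20), and the pair ratios spanned -0.85 to -0.73.

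KLF10 and KLF11, the TGF-β early genes, both fell but to different extents. KLF10 (4 exons), which is induced within the early response and dampens SMAD7, stood at 1546, 1801, 2088 and 2577 in control and 1353, 1113, 1489 and 1718 in OGTi libraries. The groups overlapped, because control replicate 1 was below OGTi replicate 4, whereas each OGTi library was below its own pair. Its log2 fold change was -0.49 ± 0.10 (DESeq2 q = 1.78e-06), with pair ratios from -0.69 to -0.19 and the widest control spread of the 10 members (22.1% of the mean). KLF11 (chr2:10042849-10054836, 4 exons), a repressor that works with the SIN3 complex, read 572, 586, 772 and 675 in control and 233, 288, 314 and 319 in OGTi libraries. The highest OGTi library was far below the lowest control library. The mean fell from 651 ± 92.6 to 289 ± 39.4, or 44.3% of control in the fit (log2 fold change -1.17 ± 0.12, DESeq2 q = 5.82e-20).

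KLF9 and KLF13, relatives that recruit the SIN3 corepressor, also differed. KLF9 (chr9:70384604-70414657, 2 exons) stood at 505, 660.4, 706 and 475 normalized counts in control and at 123, 135, 145 and 205 in OGTi libraries. All OGTi libraries were below all control libraries, with OGTi replicate 4 the highest of its group. The mean fell from 586 ± 114 to 152 ± 36.6, which is 25.8% of control in the fit (log2 fold change -1.95 ± 0.18, DESeq2 q = 1.08e-26). Pair ratios were -2.03, -2.29, -2.28 and, in replicate 4, -1.21. KLF13 (chr15:31326835-31435665, 2 exons), known for driving the chemokine gene CCL5 in T cells, read 2357, 2205, 2358 and 2362 in control and 2223, 1869, 1959 and 2073 in OGTi libraries. Here the groups overlapped, since OGTi replicate 1 was above control replicate 2, although each pair was lower under OGTi. The change was -0.19 ± 0.08 (DESeq2 q = 0.0292). It lost its call without replicate 2 (DESeq2 q = 0.159), without replicate 3 (0.150) and without replicate 4 (0.122), when the libraries were scaled by their totals (0.283), and in edgeR without the replicate block (edgeR q = 0.0592).

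SP1 and SP3, the GC-box factors, changed least among the members called apart from KLF13. SP1 (chr12:53380176-53416446, 6 exons) stood at 3389, 3950.2, 3989 and 3995 in control and 2889, 2813, 3293 and 3343 in OGTi libraries. The groups did not overlap, but control replicate 1 came close to OGTi replicates 3 and 4. SP1 fell to 80.5% of control in the fit (log2 fold change -0.31 ± 0.08, DESeq2 q = 0.000153), with the mean at 3831 ± 295 and then 3084 ± 272. SP3 (chr2:173880850-173965373, 7 exons), which can activate or repress from the sites that SP1 binds, read 1549, 1791, 1920.3 and 1785 in control and 1369.9, 1429, 1565 and 1613 in OGTi libraries. Its groups overlapped at control replicate 1, and each pair was lower. The change was -0.24 ± 0.08 (DESeq2 q = 0.0117), and the call was lost without replicate 2 (DESeq2 q = 0.120), without replicate 3 (0.0831) and with library totals as the scale (0.156).

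**Figure D2:**
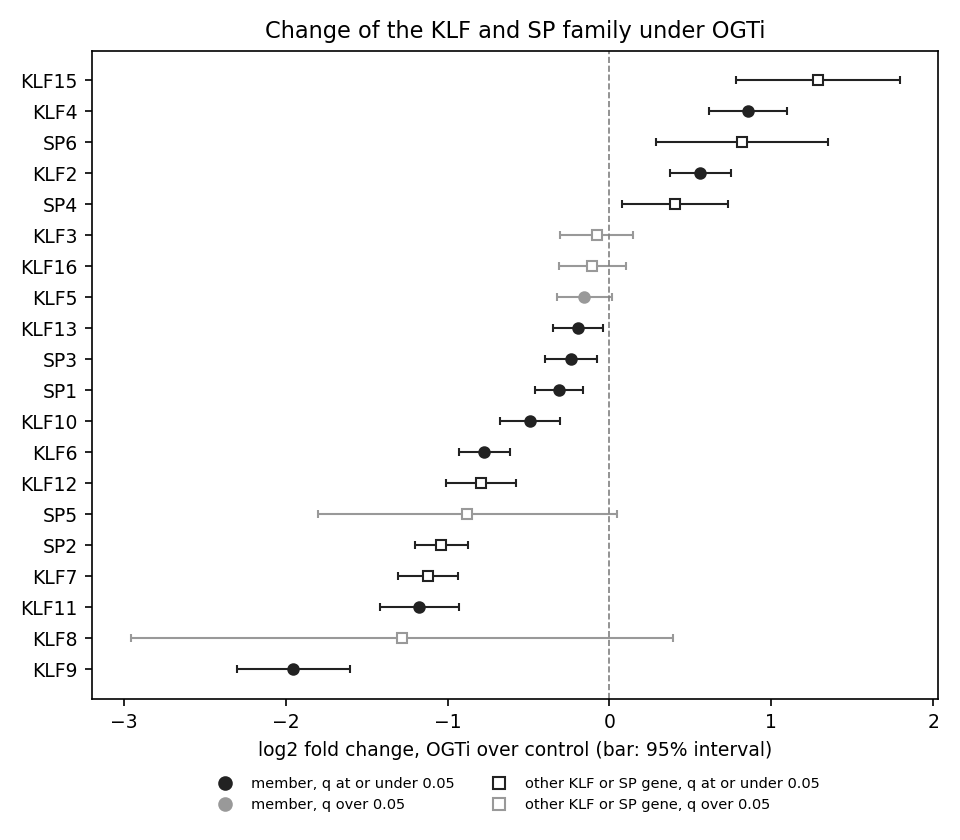
Log2 fold change (OGTi over control, DESeq2) with its 95% interval for the 10 members (circles) and the 10 other KLF and SP genes with a q (squares), black where q was at or under 0.05 and grey otherwise. KLF15 lies highest (1.29), KLF9 lowest (-1.95), and KLF8 and SP5 have wide intervals that cross 0.

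The calls gene by gene do not say whether relatives changed unequally, so the log2 ratio of the normalized counts of 4 related pairs was compared between groups with a two-sided exact permutation test over the 8 libraries. Transcript length affects the ratio's level but not its difference between groups. With 4 libraries against 4, the smallest p is 0.0286. The KLF9 to KLF13 ratio was -1.74 to -2.31 in control and -3.34 to -4.17 in OGTi libraries, a difference of -1.76 (exact permutation p = 0.0286, Benjamini-Hochberg adjusted over the 4 ratios 0.0381). KLF10 to KLF11 went the other way, from 1.43 to 1.93 in control to 1.95 to 2.54 under OGTi, a difference of 0.68 (exact permutation p = 0.0286, adjusted 0.0381), so the fall of KLF11 was the larger in this test. The KLF2 to KLF4 ratio differed by -0.30 (exact permutation p = 0.0286, adjusted 0.0381), and its groups, at 1.20 to 1.59 and 0.95 to 1.17, were separated by a narrow gap. Each of these 3 ratios moved the same way in all 4 pairs, but these tests do not use the pairs, and a sign-flip test that does gave an exact p of 0.125 for each, the smallest 4 pairs allow, so none passed the threshold in that form. For SP1 and SP3 no difference in change was detected. Their ratio was 1.12 ± 0.05 in control and 1.04 ± 0.05 in OGTi libraries (SD, n = 4), overlapping between groups (exact permutation p = 0.0857, adjusted 0.0857).

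**Figure D3:**
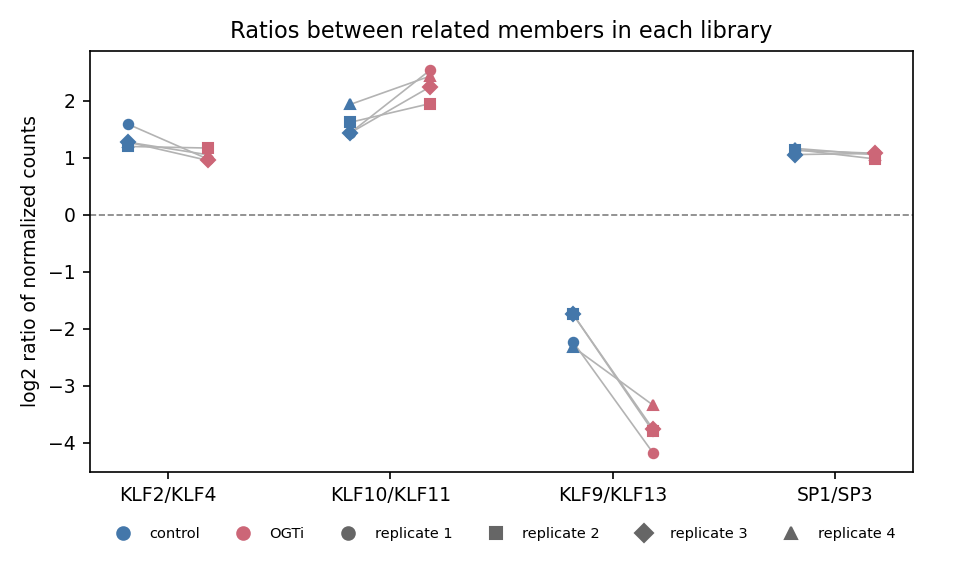
Log2 ratio of the normalized counts of 4 pairs of related members in each library, with symbols for the replicate number and grey lines joining pairs. KLF9/KLF13 drops from about -2.0 to -3.76 on average, KLF10/KLF11 rises from 1.61 to 2.29, KLF2/KLF4 falls from 1.33 to 1.04, and SP1/SP3 stays between 0.98 and 1.16 in all libraries.

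Levels were compared between genes as normalized counts per kb of the canonical GENCODE transcript, a scale that assumes this transcript is the one made. In control cells the order from the highest was KLF10 (687 ± 152 per kb), KLF2 (559.9 ± 57.2), KLF5 (533 ± 83.0), SP1 (499 ± 38.4), KLF6 (446 ± 19.0), KLF13 (339 ± 11.3), KLF4 (215 ± 36.5), KLF11 (161 ± 23.0), SP3 (150.3 ± 13.2) and KLF9 (113 ± 21.8). Neighbours overlapped in this order except KLF6 with KLF13 and KLF13 with KLF4, so the control levels formed an upper set of 5, KLF13 alone, and a lower set of 4. Under OGTi the order was KLF2 (826 ± 65.9), KLF10 (487 ± 86.8), KLF5 (475 ± 33.3), SP1 (402 ± 35.4), KLF4 (387 ± 32.2), KLF13 (297 ± 22.3), KLF6 (261 ± 8.66), SP3 (128 ± 9.70), KLF11 (71.5 ± 9.76) and KLF9 (29.2 ± 7.03). Here KLF10 overlapped with KLF5 and SP1 with KLF4, and all other neighbours were apart. KLF2 moved ahead of KLF10, KLF4 climbed from place 7 to place 5 and KLF6 dropped from place 5 to place 7. As a share of the 10 members' summed per-kb level, KLF2 went from 15.2% ± 1.80 to 24.6% ± 2.44 and KLF4 from 5.80% ± 0.799 to 11.5% ± 0.929, while KLF6 went from 12.1% ± 0.880 to 7.76% ± 0.283 and KLF9 from 3.06% ± 0.601 to 0.868% ± 0.189. The summed level itself was 3703 ± 325 per kb in control and 3361 ± 146 in OGTi libraries.

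**Figure D4:**
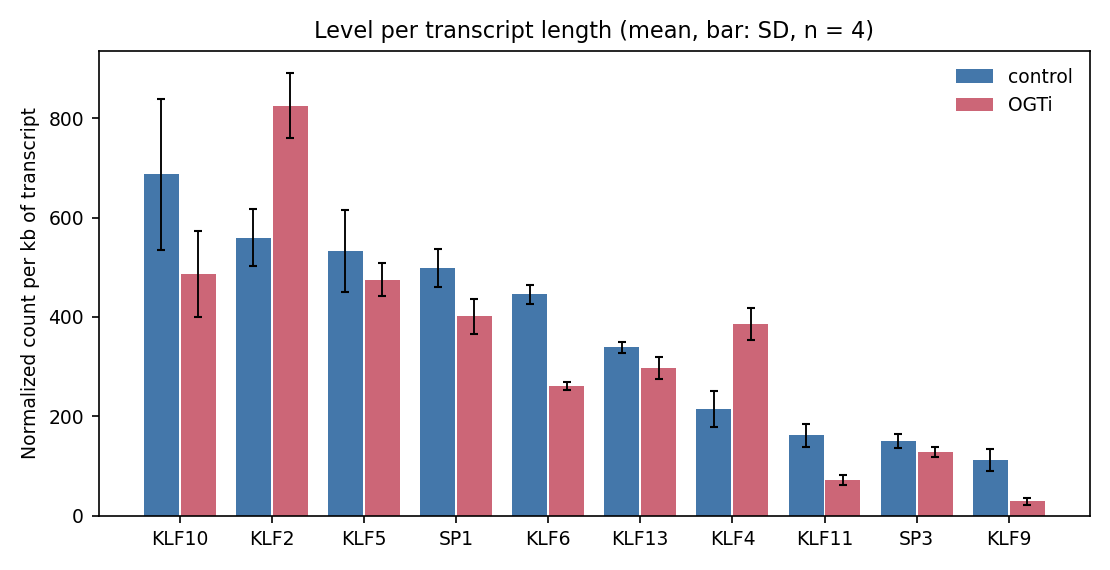
Mean normalized count per kb of transcript in control and OGTi libraries (bars start at 0, error bars SD, n = 4) for the 10 members, ordered by the control level. KLF2 is the tallest bar under OGTi (826 per kb) and KLF9 the shortest in both groups (113 and 29.2).

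The rest of the family moved in both directions too. Of the 16 other KLF and SP genes in the files, 12 were fitted and 10 had a q, of which 3 were higher, 3 lower and 4 not called. Among all genes with a q, 22.7% were called higher and 24.0% lower. KLF7, a factor of neurons and fat cells, fell from 2107 ± 80.9 to 975 ± 148 normalized counts (log2 fold change -1.12 ± 0.09, DESeq2 q = 4.73e-31). SP2 fell from 3138 ± 346 to 1521 ± 50.4 (-1.04 ± 0.08, DESeq2 q = 2.76e-34). Some counts of SP2, and also of SP4 and KLF8, had been shared between genes. The repressor KLF12 fell from 1136 ± 274 to 649 ± 110 (-0.79 ± 0.11, DESeq2 q = 5.90e-12). For KLF7, SP2 and KLF12 the groups did not overlap, and the share of all genes without overlap was not counted. KLF15, a metabolic factor of liver and muscle that glucocorticoids induce, rose from 63.4 ± 26.0 to 149 ± 21.7 (1.29 ± 0.26, DESeq2 q = 3.59e-06), also without overlap. SP6 was at 62.1 ± 12.4 and 112 ± 33.9 (0.82 ± 0.27, DESeq2 q = 0.00707) and lost its call without replicate 2 (DESeq2 q = 0.156). SP4 was at 267 ± 57.0 and 350.0 ± 36.9 (0.41 ± 0.17, DESeq2 q = 0.0334), lower in 1 of 4 pairs, and lost its call without replicate 1 (DESeq2 q = 0.251), 2 (0.0552) or 4 (0.236) and in edgeR without the block (edgeR q = 0.0518). KLF3 (-0.08 ± 0.12) and KLF16 (-0.11 ± 0.11) were well expressed and had no call (DESeq2 q of 0.610 and 0.432), and KLF8 (-1.28 ± 0.86) and SP5 (-0.88 ± 0.47) had few counts (DESeq2 q of 0.221 and 0.116). KLF14 and SP9, with 11 and 22 counts in all, had no q, and KLF1, KLF17, KLF18 and SP7 had 1 to 5 counts over the 8 libraries. SP8 was not used here.

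Genes that switch members on were read next, from lists that give no test of their own. The background was 22.7% of genes called higher and 24.0% called lower. Of 10 genes of the ERK5 and MEF2 route with a q, 1 rose and 3 fell. The kinase MAP3K3, which feeds ERK5, rose from 4279 ± 140.0 to 6954 ± 344 (log2 fold change 0.70 ± 0.07, DESeq2 q = 2.21e-21). HEG1 fell from 11587 ± 1540 to 5984 ± 1040.1 (-0.96 ± 0.08, DESeq2 q = 1.60e-29) and KRIT1 from 1048 ± 41.6 to 778 ± 118 (-0.44 ± 0.11, DESeq2 q = 0.000180). KRIT1 is part of the CCM complex, together with CCM2 and PDCD10, and HEG1 acts with it. This complex holds MAP3K3 and KLF2 and KLF4 in check in endothelium. The remaining gene that fell was the kinase MAP3K2 (-0.38 ± 0.09, DESeq2 q = 0.000275), opposite to MAP3K3. CCM2 (0.04 ± 0.09), PDCD10 (0.12 ± 0.12) and MAP2K5 (-0.14 ± 0.10) of the same list were not called. The kinase ERK5 itself, MAPK7, was at 1887 ± 169 and 1942 ± 146 (0.04 ± 0.08, DESeq2 q = 0.707), and MEF2A and MEF2D were not called, at -0.13 ± 0.08 and 0.13 ± 0.08. MEF2C had under 2 normalized counts on average in each group and no q. In the glucocorticoid list, which concerns KLF9, 3 of 5 genes fell and 0 rose. The receptor NR3C1 fell from 3534 ± 236 to 1915 ± 297 (-0.90 ± 0.09, DESeq2 q = 2.20e-21), FKBP5 by 0.34 ± 0.07 (DESeq2 q = 1.95e-05) and DUSP1 by 0.56 ± 0.09 (DESeq2 q = 2.16e-08) on the log2 scale, while the targets TSC22D3 (0.10 ± 0.14) and PER1 (0.03 ± 0.09) were not called.

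Immediate early genes, which many stimuli switch on together with KLF2, KLF4, KLF6 and KLF10, split into 5 that rose, 3 that fell and 4 not called of 12. The share over all genes with a q was 22.7% higher and 24.0% lower. JUNB rose from 464 ± 47.1 to 1201 ± 173 (1.37 ± 0.12, DESeq2 q = 4.04e-30), IER2 by 0.65 ± 0.09 (DESeq2 q = 5.36e-13) and IER3 by 0.62 ± 0.10 (DESeq2 q = 8.39e-10), and FOS and FOSB rose as well. JUN, EGR1 and MYC fell. The rises of KLF2 and KLF4 and the falls of KLF6 and KLF10 thus stood beside a list that also moved both ways.

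Partners and regulators of the proteins were read against the background of 22.7% of genes called higher and 24.0% called lower. Of 9 ubiquitin ligases that mark KLF and SP proteins or their pathway for degradation, 0 rose, 4 fell and 5 were not called, and the count of 4 dropped to 2 without replicate 2 and to 3 with library totals as the scale. SMURF1, a ligase for KLF2, fell by 0.49 ± 0.08 (DESeq2 q = 2.48e-08) and SMURF2 by 0.44 ± 0.08 (DESeq2 q = 1.13e-06) on the log2 scale. SIAH1, a ligase for KLF10, fell by 0.39 ± 0.12 (DESeq2 q = 0.00284, but 0.0700 without replicate 2), and FBXW7 and WWP1, ligases for KLF5 and KLF2, were not called (0.05 ± 0.13 and 0.16 ± 0.15). Of 10 cofactors, 1 rose, 5 fell and 4 were not called, and 4 were called with library totals as the scale. The corepressor CTBP1 fell by 0.55 ± 0.07 (DESeq2 q = 5.77e-15), the acetyltransferase KAT2B by 0.57 ± 0.12 (DESeq2 q = 4.77e-06) and CREBBP by 0.28 ± 0.08 (DESeq2 q = 0.00140, but 0.0576 without replicate 4). HDAC1 (-0.28 ± 0.09, DESeq2 q = 0.00590) and CTBP2 (-0.26 ± 0.08, DESeq2 q = 0.00239) were the others that fell. The corepressor SIN3B was the cofactor that rose (0.27 ± 0.08, DESeq2 q = 0.00265). SIN3A (-0.10 ± 0.07), HDAC2 (-0.16 ± 0.08), EP300 (-0.05 ± 0.08) and TAF4 (-0.04 ± 0.09) were not called.

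Known target genes gave no single picture. Their counts stand against 22.7% of all genes called higher and 24.0% called lower. Of 8 genes linked to KLF6, 1 rose, 1 fell and 6 were not called. CDKN1A, the p21 gene of cell cycle arrest, went up from 1297 ± 240 to 4873 ± 857 (log2 fold change 1.91 ± 0.08, DESeq2 q = 1.91e-134) while KLF6 fell, and COL1A1, the collagen gene, fell from 84778 ± 5372.5 to 43931 ± 5335 (-0.95 ± 0.07, DESeq2 q = 1.15e-36). The receptors TGFBR1 (-0.20 ± 0.09) and TGFBR2 (-0.06 ± 0.09) were not called. The KLF6 list gave 5 calls in edgeR with the block and 4 without replicate 1. Of 8 genes linked to KLF2 and KLF4, 0 rose, 5 fell and 3 were not called. EDN1, the vasoconstrictor endothelin that KLF2 represses, fell from 861 ± 146 to 82.2 ± 20.7 (-3.40 ± 0.17, DESeq2 q = 1.02e-87). The contractile genes ACTA2 (-1.75 ± 0.16, DESeq2 q = 3.45e-27) and CNN1 (-1.29 ± 0.22, DESeq2 q = 1.71e-08) and also TAGLN, which KLF4 represses in smooth muscle, fell. THBD, which KLF2 activates, fell too (-0.96 ± 0.41, DESeq2 q = 0.0458), and NOS3, another gene it activates, was not called (-0.39 ± 0.21).

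Of 4 genes linked to KLF5, CCND1 rose (0.80 ± 0.29, DESeq2 q = 0.0143, but 0.0872 without replicate 2 and 0.0503 without replicate 4) and the mitotic genes CCNB1 (-1.0 ± 0.09, DESeq2 q = 2.91e-28) and BIRC5 (-0.94 ± 0.08, DESeq2 q = 1.93e-28) fell. All 3 fitted genes linked to KLF10 and KLF11 fell. SMAD7, the inhibitor of TGF-β signalling, fell from 237 ± 41.5 to 155 ± 51.8 (-0.64 ± 0.18, DESeq2 q = 0.00102), SMAD2 fell by 0.46 ± 0.09 on the log2 scale (DESeq2 q = 1.23e-06) and BAX by 0.28 ± 0.09 (DESeq2 q = 0.00686, but 0.0818 without replicate 1, 0.0661 without replicate 4 and 0.0854 with library totals as the scale). Of 6 genes linked to SP1 and SP3, 1 rose, 3 fell and 2 were not called. The collagen gene COL1A2 fell from 7891 ± 1551 to 2991 ± 490.0 (-1.39 ± 0.10, DESeq2 q = 2.77e-40). TYMS, the thymidylate synthase gene, fell by 0.38 ± 0.07 on the log2 scale (DESeq2 q = 2.04e-07), and VEGFA, the vascular growth factor, rose by 1.19 ± 0.11 (DESeq2 q = 3.99e-24). Over the 10 lists together, 10 genes rose, 32 fell and 33 were not called of 75 with a q, with a median log2 fold change of -0.20. Over all genes with a q, 22.7% were called higher and 24.0% lower, and with library totals as the scale 15 list genes were higher and 26 lower. The lists named 79 genes, of which 76 were fitted, without VCAM1, MAOB and ZBTB16. COL1A1, COL1A2, ACTA2 and TAGLN also stand in the stellate marker list. No list was tested against other genes.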

How the data were processed

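RNA from 4 control and 4 OGTi cultures of LX-2 cells was enriched on oligo dT, made into stranded libraries and sequenced from both ends. Per the submitters' processing notes and methods, reads were aligned to hg38 with Bowtie2 2.3.5.1 and counted with RSEM 1.3.1. The authors' deposited files hold expected counts (estimated counts per gene, not scaled for depth), 1 file per library, and 0 columns of per-sample values were left unused. A further deposited table holds the authors' own DESeq2 1.36.0 comparison (base mean, log2 fold change, standard error, Wald statistic, p-value and adjusted p-value) and was not used.

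Expected counts were rounded, genes with a total under 10 were dropped, and 14895 genes were fitted with DESeq2 1.42.0 in R 4.3.3 (median-of-ratios size factors, Wald test, no shrinkage, replicate number as a block, call at q of 0.05 or lower over all genes). edgeR 4.0.16, other scalings and filters, and leaving out each replicate were the alternatives. The block follows the study's methods. Deviations from the group mean correlated at 0.403, 0.371, 0.190 and 0.317 between same-numbered libraries across 11689 genes, and control replicate 3 correlated more (0.345) with an OGTi library of another number. Groups came from the labels. Where the source of a replicate is not stated beyond "biological", p-values cover the spread between these cultures of 1 line. The scripts were tested on simulated data.

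The members and lists were chosen with earlier results of these data known. Genes named were all members, all other KLF and SP genes, and the 3 called genes with the largest absolute Wald statistic of each list, and 1 gene of the SP1 and SP3 list is not reported here. Others named (uncalled genes, and MAP3K2, FOS, FOSB, JUN, EGR1, MYC, SIN3B, HDAC1, CTBP2, TAGLN and THBD) were chosen after their values were seen. Positions are from GENCODE release 44 (GRCh38).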

Additional observations from a re-analysis of the deposited data

Results flagged for a closer look

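In 51 genes named here, each group of 4 libraries was checked for 1 library far from the other 3. This held in 10 of 102 groups, where a rate of 1 in 20 would give about 5.1. That rate need not hold for genes with few counts, whose libraries stand at or near 0. Some of the 10 groups are of this kind, so no excess over chance is read from the comparison. Of the members, KLF13 was low in control replicate 2, at 2205 normalized counts where the other control libraries had 2357 to 2362, and SP1 was low in control replicate 1, at 3389 against 3950.2 to 3995. Without replicate 2 KLF13 was not called (DESeq2 q = 0.159), but the same held without replicate 3 (0.150) and without replicate 4 (0.122). SP1 kept its call without each replicate. In the rest of the family, KLF8 was at 3.12 in control replicate 4 against 13.6 to 15.0 in the others. KLF14 was at 1.95 in control replicate 1 and 0 in the other control libraries, and at 8.01 in OGTi replicate 4 against at most 0.961. SP9 was at 9.04 in OGTi replicate 2 against at most 0.914. These 3 genes had few counts.

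Among target and stimulus genes, ACTA2 stood at 254 in control replicate 2, below the 818 to 920.5 of the remaining ones, and CDKN1A at 1653 in control replicate 4 against 1138 to 1218. VEGFA was low in OGTi replicate 1 (1363 against 1813 to 1844), and IER3 was high in OGTi replicate 2 (2486 against 2167 to 2205). The cause was not tested.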

How the results depend on the processing

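Each member was refitted under 12 alternatives, and 112 of the 120 values kept their direction and their side of the threshold. The other 8 kept their direction and lost the call, 5 for KLF13 and 3 for SP3. The number of members called was 9 in most settings, 8 in edgeR without the block, 7 with library totals as the scale, and 7 to 9 when a replicate was left out, and both rises were called each time. The replicate block changed no member's call in DESeq2, which gave 6307 genes and 9 members without the block. Leaving out a replicate gave 5127 to 5690 genes called. Scaling by library totals moved the median log2 fold change of all genes to 0.09 and gave 4043 genes higher and 2563 lower. Of 487 values for 41 other named genes, 475 were unchanged in this sense and 12 lost the call. With the sign-flip test that uses the replicate block, the exact p of the KLF2 to KLF4 (-0.30), KLF10 to KLF11 (0.68) and KLF9 to KLF13 (-1.76) differences was 0.125, the smallest that test can give. Without 1 replicate the differences were -0.39 to -0.19, 0.55 to 0.80 and -2.01 to -1.66, each with an exact permutation p of 0.10, also the smallest possible. The cause of the lost calls was not tested, and the low counts of KLF8, KLF14, SP5 and SP9 limit what can be said of them.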
